A study of Mus musculus with 57 samples.

Results

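Classical, or Ly6C-high, monocytes are the blood cells that enter an inflamed tissue and give rise there to macrophages. The 8 genes described here mark that cell in the mouse and were taken by symbol from the deposited counts, as 8 of 24941 gene symbols, each measured on its transcript with the highest total count. They code for the sorting antigen Ly6C itself (Ly6c2, a lipid-anchored surface protein), a matrix proteoglycan (Vcan, versican), a secreted chitinase-like lectin (Chil3, also called Ym1), a small cysteine-rich protein (Plac8), a lipid-anchored surface glycoprotein best known from neutrophils (Cd177), the catalytic A subunit of coagulation factor XIII, which cross-links fibrin (F13a1), and the calcium-binding pair that forms calprotectin (S100a8 and S100a9).

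When resident Kupffer cells of the liver are lost, monocytes from blood can enter the empty niche and take on a Kupffer cell programme. During this change they switch off monocyte genes such as Ly6c2 and Ccr2, the chemokine receptor that guides monocytes out of the bone marrow, and switch on Clec4f and later Timd4, which codes for Tim4. Monocytes that enter the liver outside this niche can become macrophages that keep part of the monocyte programme.

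The genes were followed in 57 RNA sequencing libraries of 16 groups from 4 sets, from mice whose age and sex were not used here. The population set (C57BL/6J, 2 libraries a group) held Ly6CLow-RM and Ly6CHi-RM (recruited liver macrophages, CD11b-high and Ly6C-low or Ly6C-high), KN-RM (recruited macrophages of the Kupffer cell niche, F4/80-high and Tim4-negative), KC-N (Tim4-positive Kupffer cells), all on a diet that causes non-alcoholic steatohepatitis (NASH), Kupffer cells of healthy mice (KC-H), and Ly6C-high monocytes from the blood of mice on the NASH diet. Weeks of diet are not given for this set. The time course (C57BL/6J) held Tim4-positive Kupffer cells from 3 control-diet libraries (week 0) and from NASH diet libraries of week 1 (2 libraries), week 4 (2), week 10 (3), week 20 (3) and week 30 (4). The LXR set held KN-RM after 20 weeks of that diet from mice with floxed genes of both LXR nuclear receptors, 3 libraries with a Clec4f-driven Cre by their label and 3 without; Clec4f drives Cre in Kupffer cells and in recruited cells that have switched Clec4f on. Whole liver gave 12 libraries labelled positive and 10 labelled negative for a diphtheria toxin receptor that depends on Clec4f-Cre (DTR), all after 4 weeks of a choline-deficient high-fat diet (CDAHFD), and whether toxin was given is not stated in the labels.

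Sequencing was shallowest for the LXR libraries, with a total of 2.32 to 5.09 M counts each (M, mega). Whole livers had 5.39 to 9.94 M, population libraries 12.4 to 22.7 M and Kupffer cells of the time course 10.5 to 27.0 M. Levels are counts scaled to library size (CPM), with a scaling factor for each library (TMM) set within each of the 4 sets, so levels of different sets were not on 1 common scale. In the population set Clec4f, a Kupffer cell marker, had 8374 and 8375 CPM in KC-H, 6586 and 4605 CPM in KC-N and 3316 and 2670 CPM in KN-RM, against 0 and 0.163 CPM in blood monocytes. Timd4 had 12.6 and 5.48 CPM in the Tim4-negative KN-RM, against 263 and 164 CPM in KC-N. In the LXR set, however, Timd4 had 304 and 94.3 CPM in 2 of the KN-RM libraries labelled Cre-positive, which goes against their Tim4-negative gate. In bulk RNA, fewer cells of a type and less RNA per cell cannot be told apart, and this touches every level below.

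The start of a gene is the stretch where transcription factors of the monocyte lineage, such as PU.1 (Spi1) and the C/EBP family, can act. The 150 bases before the RefSeq start site were searched in all 8 genes (RefSeq, GRCm38.p6, the start site being that of the transcript counted). The search covered TATAAA on the strand of the gene (present in 4.84% of 32851 promoter windows of that length), the PU.1 core GAGGAA on both strands (14.5%) and the C/EBP form TTNNGCAA on both strands (5.46%). The windows of 4 genes held 1 or more matches and are printed 5′ to 3′ on the gene's strand because they differ in which one they hold, with the matches in capitals: Ly6c2 (chr15:75111972-75112121, minus strand), Plac8 (chr5:100572206-100572355, minus strand), Cd177 (chr7:24760312-24760461, minus strand) and S100a8 (chr3:90668921-90669070, plus strand).
Ly6c2: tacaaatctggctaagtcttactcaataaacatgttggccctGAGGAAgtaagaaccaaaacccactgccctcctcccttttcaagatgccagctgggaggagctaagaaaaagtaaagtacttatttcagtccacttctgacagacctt
Plac8: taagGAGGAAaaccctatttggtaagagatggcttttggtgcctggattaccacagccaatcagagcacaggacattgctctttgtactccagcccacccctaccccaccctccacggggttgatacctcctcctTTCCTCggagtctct
Cd177: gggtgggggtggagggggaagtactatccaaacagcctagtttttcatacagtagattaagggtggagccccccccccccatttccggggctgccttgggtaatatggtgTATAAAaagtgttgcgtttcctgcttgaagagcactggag
S100a8: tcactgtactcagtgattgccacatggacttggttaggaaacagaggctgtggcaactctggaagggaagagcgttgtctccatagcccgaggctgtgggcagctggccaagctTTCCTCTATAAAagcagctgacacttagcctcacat
GAGGAA lay in the windows of Ly6c2, Plac8 (on both strands) and S100a8 (on the opposite strand, where it reads TTCCTC), and TATAAA in those of Cd177, ending 34 bases before the start, and S100a8, ending 24 bases before it. The windows of Vcan, Chil3, F13a1 and S100a9 held none of these letters, and TTNNGCAA was in none of the 8. A match is a description of the sequence and not a bound site.

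Blood monocytes had the highest level of 7 of the 8 genes and Ly6CHi-RM the next. In the other 4 populations Ly6c2, Vcan, Chil3, Cd177 and F13a1 had at most 1.39% of the blood mean and Plac8 3.15% to 5.93%, while S100a8 had 7.96% to 25.6% and S100a9 9.43% to 42.1%. Levels between genes are compared per transcript length, in TPM, as deposited. In blood monocytes Plac8 stood highest with 3588 and 3919 TPM, followed by Chil3 with 1933 and 2568, Ly6c2 with 1414 and 1618, and F13a1 with 929.5 and 1223 TPM. Cd177 had 199 and 221 TPM and Vcan 160 and 232 TPM there, and Vcan's value is counted over its longest transcript. S100a8 had only 49.6 and 40.0 TPM, and S100a9 19.3 and 22.8 TPM. The label of a classical monocyte gene therefore fitted the sorted cells for 6 of the genes, and S100a8 and S100a9 were low in every sorted population, against their usual abundance in this cell.

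**Figure D1:**
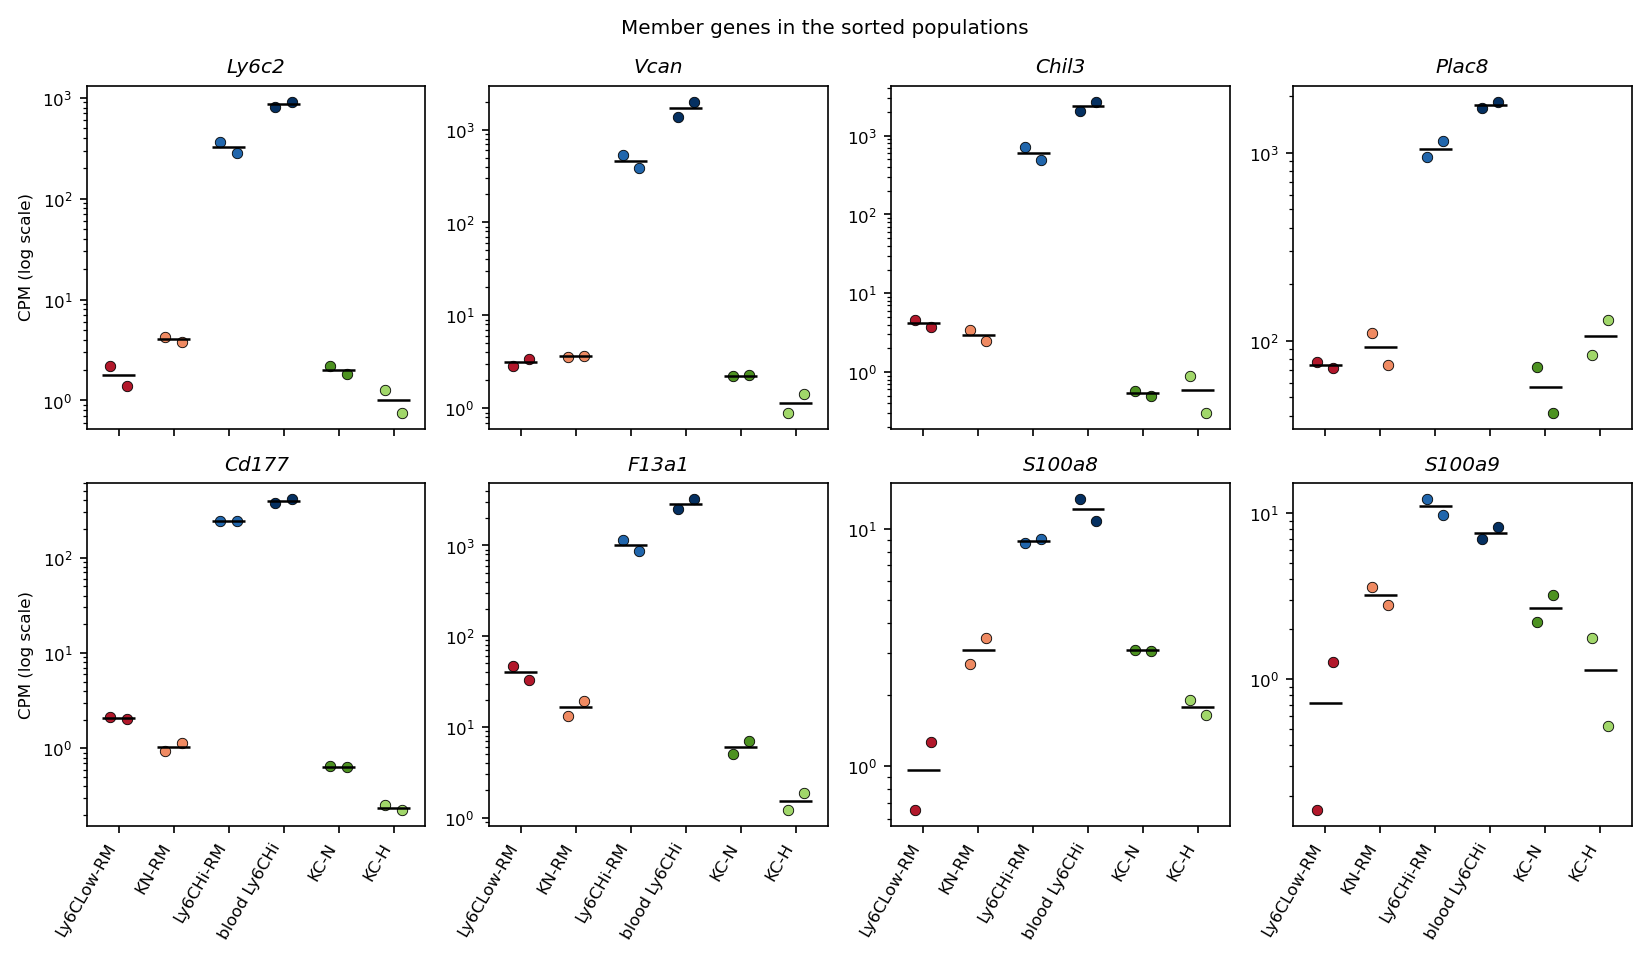
CPM of the 8 genes in the 12 libraries of the population set, on a log axis, with 1 point for each library. For Ly6c2, Vcan, Chil3, Cd177 and F13a1 the Ly6CHi-RM and blood points lie far above all others, while S100a8 and S100a9 stay below 14 CPM in every library.

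Ly6c2, the gene of the sorting antigen, had 2.19 and 1.40 CPM in Ly6CLow-RM, 4.25 and 3.81 in KN-RM, 2.20 and 1.85 in KC-N, 367 and 282 in Ly6CHi-RM, and 805 and 917 CPM in blood monocytes, while KC-H had 1.26 and 0.746 CPM. Its level in Ly6C-low and Ly6C-high cells was set in part by the sort itself and is a description. Ly6c2 shares 14.5% of its 50-base stretches with other transcripts, Ly6c1 among them. Ly6c1 had at most 1.28 CPM in any of the 57 libraries, while Ly6c2 itself had at most 3.34 CPM in whole livers. The part of shared reads in low levels of Ly6c2 was not tested.

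Chil3 spanned the widest range of the 8 genes, from blood monocytes to KC-N. It had 4.63 and 3.74 CPM in Ly6CLow-RM, 3.42 and 2.48 in KN-RM, 719 and 496 in Ly6CHi-RM, 0.571 and 0.498 in KC-N, and 2054 and 2717 CPM in blood monocytes. Its KC-N and KC-H libraries overlapped, at 0.571 and 0.498 against 0.884 and 0.298 CPM, and their order could not be told. Chil3 shares 26.9% of its 50-base stretches with other transcripts, such as its paralog Chil4, which stayed at or below 1.38 CPM in all libraries.

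F13a1 had 47.5 and 33.0 CPM in Ly6CLow-RM, 13.3 and 19.5 in KN-RM, 1150 and 873 in Ly6CHi-RM, 4.97 and 7.04 in KC-N, 1.2 and 1.87 in KC-H, and 2498 and 3272 CPM in blood monocytes. Its 6 populations did not overlap, in the order blood monocytes, Ly6CHi-RM, Ly6CLow-RM, KN-RM, KC-N and KC-H. Cd177 had 2.15 and 2.03 CPM in Ly6CLow-RM, 0.938 and 1.14 in KN-RM, 243 and 242 in Ly6CHi-RM, 0.652 and 0.640 in KC-N, 0.252 and 0.224 in KC-H, and 373 and 413 CPM in blood monocytes, and again no populations overlapped. The sum of 13 neutrophil markers was 415 to 467 CPM in Ly6CHi-RM and 702 to 911 CPM in blood monocytes. Csf3r made up most of it, with 350 and 320 CPM in Ly6CHi-RM and 469 and 588 CPM in blood monocytes. It also had 255 and 203 CPM in KC-H, so the sum is no measure of neutrophils alone. Ly6g had at most 0.163 CPM in the population set. Others were higher: Mmp8 had 79.4 and 50.4 CPM in Ly6CHi-RM and 181 and 274 CPM in blood monocytes, and Lcn2 12.3 and 21.9 CPM in Ly6CHi-RM and 44.8 and 33.9 CPM in blood monocytes. Ngp had 9.36 and 4.78 CPM in Ly6CHi-RM, against 0.0474 and 0.0814 CPM in blood monocytes. The part of neutrophils in the level of Cd177 was not tested. Cd177 also shares 5.51% of its 50-base stretches with transcripts of other genes.

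Vcan had 2.89 and 3.36 CPM in Ly6CLow-RM, 3.59 and 3.68 in KN-RM, 534 and 387 in Ly6CHi-RM, 2.20 and 2.28 in KC-N, and 1382 and 1999 CPM in blood monocytes. Versican comes in forms that hold both, either or neither of its long carbohydrate-bearing exons, and the deposited lines for its transcripts allowed these exons to be counted apart. The first, GAG-alpha (chr13:89702918-89705797, mm10), had 339 reads per kilobase in Ly6CHi-RM and 1107 in blood monocytes, summed over both libraries. The second, GAG-beta (chr13:89688285-89693501), had 1487 and 5986 reads per kilobase in the same cells. The density of GAG-alpha over GAG-beta was 0.213 to 0.239 in the Ly6CHi-RM libraries, against 0.182 to 0.188 in the blood libraries, so reads of GAG-beta prevailed in both, and the difference between the cells was not tested.

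Plac8 had the highest TPM of the 8 genes in each of the 6 populations. In CPM it had 77.6 and 71.8 CPM in Ly6CLow-RM, 111 and 74.4 in KN-RM, 945 and 1152 in Ly6CHi-RM, 72.1 and 41.2 in KC-N, 83.9 and 129 in KC-H, and 1721 and 1872 CPM in blood monocytes. Neighbours in the order KC-H, KN-RM, Ly6CLow-RM and KC-N overlapped, but both KC-H libraries lay above both libraries of Ly6CLow-RM and of KC-N.

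S100a8 had 0.650 and 1.27 CPM in Ly6CLow-RM, 2.70 and 3.48 in KN-RM, 8.73 and 9.09 in Ly6CHi-RM, 3.10 and 3.06 in KC-N, 1.89 and 1.64 in KC-H, and 13.4 and 10.7 CPM in blood monocytes. S100a9 had 0.163 and 1.27 CPM in Ly6CLow-RM, 3.59 and 2.81 in KN-RM, 12.2 and 9.79 in Ly6CHi-RM, 2.20 and 3.20 in KC-N, 1.77 and 0.522 in KC-H, and 6.97 and 8.22 CPM in blood monocytes. S100a9 was the exception in the order, with Ly6CHi-RM above blood monocytes.

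Within the liver the Ly6CHi-RM kept different parts of the blood level of each gene. Their mean was 61.6% of the blood mean for Cd177, 58.4% for Plac8, 37.7% for Ly6c2, 35.1% for F13a1, 27.3% for Vcan and 25.5% for Chil3. By the test across all genes (edgeR's quasi-likelihood test, adjusted p by Benjamini-Hochberg, called under 0.05) 6 of the 8 genes were lower in Ly6CHi-RM than in blood monocytes, beside 21.3% of the 14407 genes tested (48.6% were called in either direction). Chil3 averaged 608 ± 158 CPM in Ly6CHi-RM and 2385 ± 469 CPM in blood monocytes (SD, n = 2 each), a log2 change of -1.97 ± 0.23 (SE; adjusted p = 5.1e-05). Vcan fell by 1.87 ± 0.20, F13a1 by 1.51 ± 0.24 and Ly6c2 by 1.41 ± 0.17 on the log2 scale. Plac8 fell by 0.78 ± 0.27 (adjusted p = 0.0333) and Cd177 by 0.70 ± 0.10 (adjusted p = 2.3e-04). S100a8 (-0.44 ± 0.28, adjusted p = 0.21) and S100a9 (0.54 ± 0.54, adjusted p = 0.433) did not pass. The call of Plac8 was lost without any 1 of the 4 libraries, and the other 5 calls held in each case.

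The median log2 change of the 8 genes in this comparison was -1.09, beside -0.01 over all genes. Of 14 other genes of classical monocytes, 8 fell and 2 rose, with a median of -0.78. Ccr2 averaged 1475 ± 197 CPM in Ly6CHi-RM and 2903 ± 540 CPM in blood monocytes (log2 change -0.98, adjusted p = 0.0013). Of 6 transcription factors of monocytes 2 fell and none rose, and Spi1, the gene of PU.1, differed by -0.07 on the log2 scale and did not pass. Of 9 paralogs of the 8 genes, 7 were tested, of which 1 rose and 3 fell, with a median of -0.51. Of 14 genes of binding partners and substrates, among them fibrinogen and the ADAMTS proteases that cut versican, 9 rose and 2 fell, and 7 of them had no counts in blood monocytes. Markers of several other cell types differed too. All 8 hepatocyte markers were at 0 in blood monocytes, and their sum was 1286 to 3494 CPM in Ly6CHi-RM. The sum of 11 Kupffer cell markers was 459 to 538 CPM in Ly6CHi-RM and 22.6 to 36.2 CPM in blood monocytes. Called higher in Ly6CHi-RM were 8 of 8 sinusoidal endothelial, 9 of 9 stellate cell, 6 of 7 T and NK cell, 6 of 7 dendritic cell and 4 of 4 B cell markers. None of these was called lower. Erythroid markers were called lower in 4 of 4 tested, and of 11 neutrophil markers tested 3 rose and 3 fell. Their part in the result was not tested.

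The gap between Ly6C-high cells and the other liver macrophages was far larger. In Ly6CLow-RM all 8 genes were lower than in Ly6CHi-RM, beside 14% of all genes tested (25.7% were called in either direction), with Ly6c2 as the gene of the gate. Cd177 averaged 2.09 ± 0.09 CPM in Ly6CLow-RM and 242 ± 0.75 CPM in Ly6CHi-RM (SD, n = 2 each), a log2 change of -6.84 ± 0.14 (SE; adjusted p = 3.5e-10). Vcan fell by 7.21 ± 0.27, Chil3 by 7.16 ± 0.30 and F13a1 by 4.65 ± 0.28 on the log2 scale. Plac8 fell by 3.81 ± 0.30 and, from much lower levels, S100a9 by 4.07 ± 0.66 and S100a8 by 3.26 ± 0.33. Markers of other cell types moved as well. Neutrophil markers were lower in 8 of 11 tested (median log2 change -3.03), with a sum of 172 to 197 CPM in Ly6CLow-RM and 415 to 467 CPM in Ly6CHi-RM. Most of both sums was Csf3r, with 154 and 177 CPM in Ly6CLow-RM and 350 and 320 CPM in Ly6CHi-RM. Hepatocyte markers were lower in 8 of 8 (-3.40) and endothelial markers in 6 of 8 (-1.02), while dendritic cell markers were higher in 5 of 7 (1.67), with a sum of 384 to 402 CPM in Ly6CLow-RM and 89.1 to 109 CPM in Ly6CHi-RM. Their part in the changes was not tested. Of the 14 other classical monocyte genes 12 fell and none rose, with a median of -1.91 beside -0.03 over all genes. Fn1, the gene of fibronectin, fell by 2.93 and Ccr2 by 0.90 on the log2 scale. Of the 7 paralogs tested 4 fell, among them S100a4 (-1.93, adjusted p = 0.0015) and S100a6 (-1.84), 2 further S100 calcium-binding proteins. Among the 6 transcription factors 2 fell, and Spi1 (-0.32, adjusted p = 0.083) did not pass.

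In KN-RM all 8 genes were again lower than in Ly6CHi-RM, beside 20.1% of all genes tested (18.8% were called higher and 39.0% in either direction), and this comparison shares its Ly6CHi-RM libraries with the one before. Cd177 averaged 1.04 ± 0.14 CPM in KN-RM and 242 ± 0.75 CPM in Ly6CHi-RM, a 234-fold lower level, and Chil3 was 204-fold, Vcan 127-fold, Ly6c2, the gene of the Ly6C-high gate, 80.1-fold and F13a1 61.8-fold lower. Plac8 was 11.3-fold lower. S100a9 was 3.42-fold lower (adjusted p = 0.028) and S100a8 2.89-fold lower (adjusted p = 0.0020). The call of S100a9 was lost without any 1 of the 4 libraries. Of the other classical monocyte genes 13 of 14 fell and 1 rose, with a median log2 change of -2.86 beside 0.01 over all genes. That list holds Itgam, the gene of CD11b, with 151 and 284 CPM in KN-RM and 1116 and 1259 CPM in Ly6CHi-RM. CD11b was part of the gate for Ly6CHi-RM, so the level of Itgam was set in part by the sort. Fn1 averaged 76.9 CPM in KN-RM and 9120 CPM in Ly6CHi-RM, and Ccr2 198 ± 35.3 CPM in KN-RM and 1475 ± 197 CPM in Ly6CHi-RM. S100a4 fell by 5.74 and S100a6 by 4.68 on the log2 scale. The sum of Kupffer cell markers was 13423 to 16004 CPM in KN-RM, against 459 to 538 CPM in Ly6CHi-RM. Hepatocyte markers summed to 82.4 to 351 CPM in KN-RM, against 1286 to 3494 CPM in Ly6CHi-RM, and were lower in 8 of 8. Lower too were 7 of 8 endothelial, 4 of 7 dendritic cell and 4 of 11 neutrophil markers tested, while 1 marker of each of these lists was called higher. Their part in the changes was not tested.

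**Figure D2:**
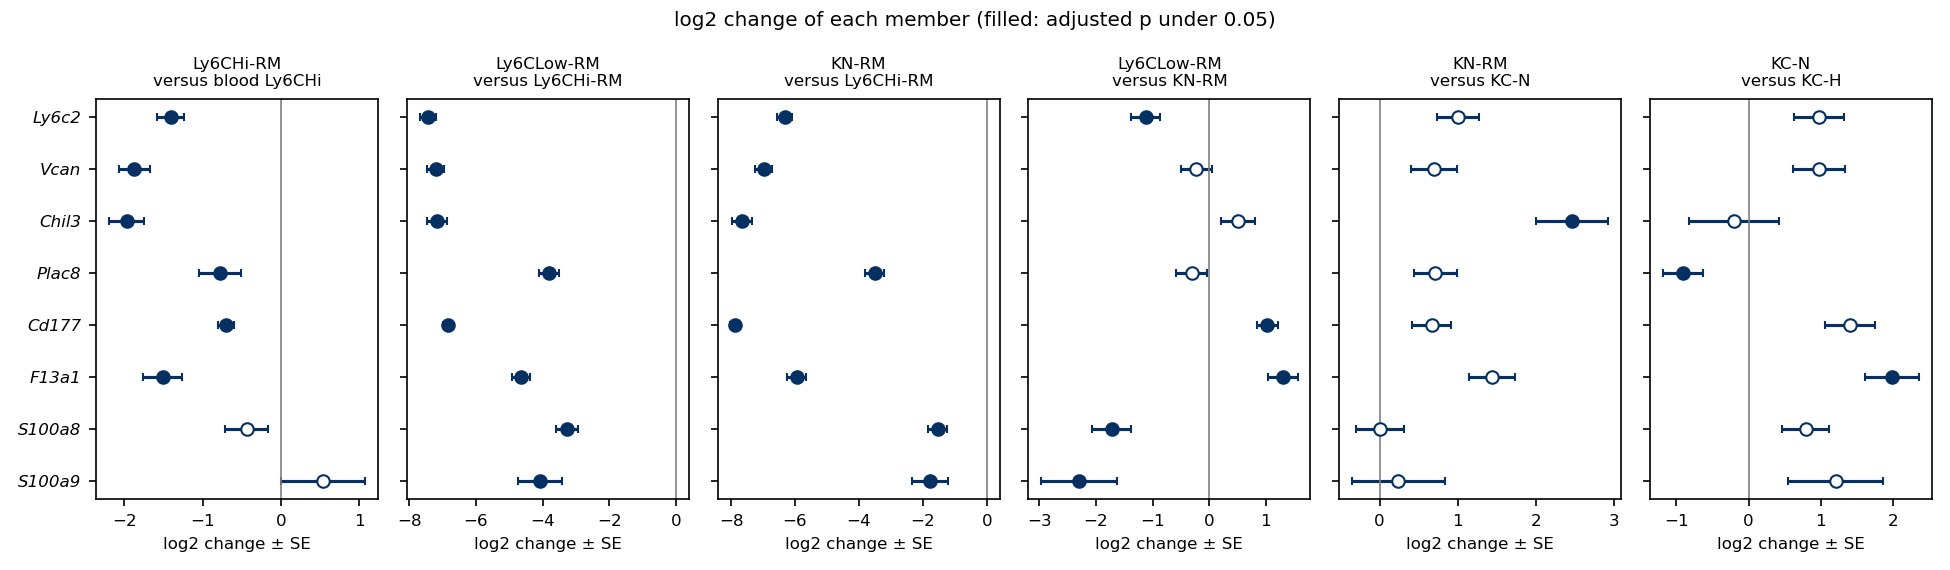
Log2 change of each of the 8 genes in each comparison, with bars for the SE, filled points for an adjusted p under 0.05 and open points for the rest. Against Ly6CHi-RM all 8 genes lie to the negative side in both Ly6CLow-RM and KN-RM. In KC-N against KC-H, F13a1 lies at 1.99 and Plac8 at -0.91.

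Between the 2 recruited populations in which most of the 8 genes were low, the genes went different ways. F13a1 averaged 40.2 ± 10.2 CPM in Ly6CLow-RM and 16.4 ± 4.41 CPM in KN-RM (SD, n = 2 each), a log2 change of 1.30 ± 0.26 (SE; adjusted p = 0.0029), and Cd177 was also higher in Ly6CLow-RM (1.02 ± 0.18, adjusted p = 0.0020). Ly6c2 (-1.12 ± 0.25), S100a8 (-1.73 ± 0.34) and S100a9 (-2.29 ± 0.67) were lower in Ly6CLow-RM. Beside these 2 higher and 3 lower genes, 15.3% of all genes tested were higher and 18.1% lower. Ly6c2 was part of the gate for Ly6CLow-RM. Chil3 (0.51), Plac8 (-0.31) and Vcan (-0.23) did not pass. Without the first KN-RM library, or with these 2 populations fitted alone, the calls of Ly6c2, Cd177 and S100a9 were lost and 2 were left. The call of S100a9 was also lost without the first Ly6CLow-RM library. Ccr2 had 717 and 859 CPM in Ly6CLow-RM, against 173 and 223 CPM in KN-RM. Of the 14 other classical monocyte genes 6 were higher and 3 lower, with a median of 0.83, and of the 7 paralogs tested 5 were higher and none lower, with a median of 2.80, beside -0.01 over all genes. The list of 14 holds Itgam, the gene of CD11b, which was part of the gate for Ly6CLow-RM.

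Between KN-RM and KC-N, which share the Kupffer cell niche on the same diet, edgeR called 77 of 14407 genes (0.534%) in either direction. At an unadjusted p under 0.05 in that test there were 1311 genes, and with so few libraries a group few calls need not mean few differences. Chil3 averaged 2.95 ± 0.67 CPM in KN-RM and 0.534 ± 0.05 CPM in KC-N, a log2 change of 2.47 ± 0.46 (adjusted p = 0.0449), and was the only one of the 8 called higher, beside 0.333% of all genes tested. F13a1 (1.44, adjusted p = 0.0608) and Ly6c2 (1.00, adjusted p = 0.18) had values above 0 and did not pass. Leaving out any 1 of the 4 libraries, or fitting these 2 populations alone, left no call. Ccr2 had 173 and 223 CPM in KN-RM, against 23.0 and 29.3 CPM in KC-N.

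Between Kupffer cells of NASH diet and healthy mice 1 of the 8 genes was higher and 1 lower, a share close to that of all genes. F13a1 averaged 6.01 ± 1.46 CPM in KC-N and 1.53 ± 0.47 CPM in KC-H (SD, n = 2 each), a log2 change of 1.99 ± 0.38 (SE; adjusted p = 0.0048), beside 11.2% of genes called higher. Plac8 averaged 56.7 ± 21.9 CPM in KC-N and 107 ± 32.0 CPM in KC-H (-0.91 ± 0.28, adjusted p = 0.0397), beside 9.56% called lower. Ly6c2 (0.98, adjusted p = 0.0655), Vcan (0.98, adjusted p = 0.081) and Cd177 (1.40, adjusted p = 0.077) did not pass. Without the second KC-N library none of the 8 genes was called, and without the second KC-H library the call of Plac8 was lost. Of 7 markers of T and NK cells 5 were higher (median 1.82; sum 17.4 to 29.1 CPM in KC-N, against 7.13 to 7.46 CPM in KC-H) and 7 of 8 sinusoidal endothelial markers were lower (-0.96). Erythroid markers were lower in 2 of 4 tested (-3.93; 2.70 to 10.3 CPM in KC-N, against 25.7 to 255 CPM in KC-H). Their part in the changes was not tested.

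The time course followed Kupffer cells from control diet to 30 weeks, and Plac8 was called in each of the 3 tests made on it. Plac8 had 100, 125 and 144 CPM at week 0, 182 and 221 at week 1, 116 and 120 at week 4, 116, 73.3 and 124 at week 10, 53.3, 43.4 and 49.1 at week 20, and 28.4, 64.2, 52.8 and 38.1 CPM at week 30. The libraries of weeks 20 and 30 all lay below those of weeks 0 to 10. Plac8 averaged 45.9 ± 15.8 CPM at week 30 (n = 4) and 123 ± 22.1 CPM at week 0 (n = 3, SD), a log2 change of -1.43 ± 0.23 (edgeR's quasi-likelihood test, adjusted p = 2.3e-04). Over the 14 libraries on the diet its slope was -0.45 ± 0.06 log2 units for each doubling of weeks (adjusted p = 1.1e-04), and it was the only one of the 8 with a called slope, beside 12% of genes called lower.

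F13a1 had 5.87, 1.29 and 3.82 CPM at week 0, 3.46 and 2.70 at week 1, 0.372 and 1.23 at week 4, 5.42, 3.11 and 0 at week 10, 9.58, 10.2 and 5.46 at week 20, and 18.7, 5.45, 8.58 and 13.8 CPM at week 30. The libraries of weeks 20 and 30 overlapped with week 0 only at the lower end. The test over any week called F13a1 (adjusted p = 0.0258), S100a8 (0.0034), S100a9 (0.0016) and Plac8 (2.4e-05), 4 of the 8 beside 58.3% of all genes tested. The call of F13a1 was lost without replicate 1 or 4 of week 30 or replicate 1 of week 4. The contrast of week 30 with week 0 gave 1.66 ± 0.75 for F13a1 (adjusted p = 0.107) and 1.16 for Vcan (adjusted p = 0.083), and neither passed. Ly6c2 averaged 4.99 ± 3.00, 4.65 ± 1.77, 1.64 ± 0.44, 5.51 ± 3.56, 7.28 ± 2.88 and 6.02 ± 2.38 CPM at weeks 0, 1, 4, 10, 20 and 30, and no contrast of it was called. Vcan, Chil3 and Cd177 stayed between 0 and 6.57 CPM in every library, and none of them was called.

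**Figure D3:**
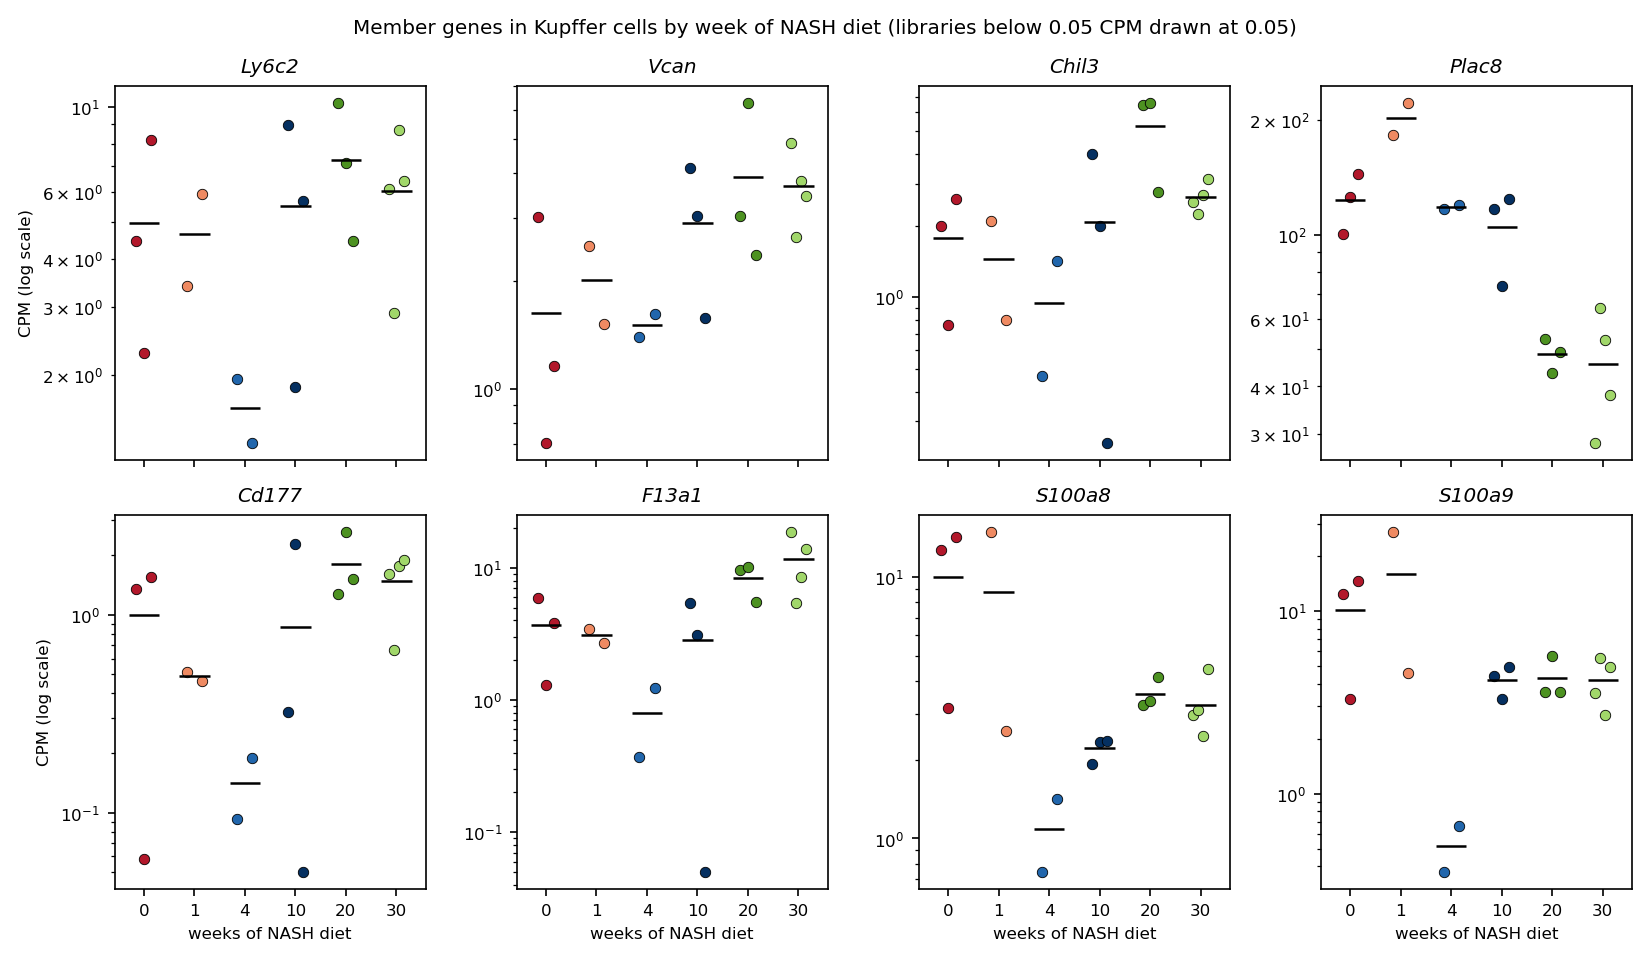
CPM of the 8 genes in the 17 Kupffer cell libraries by weeks of NASH diet, on a log axis, with 1 point for each library. A short line marks each group mean, and libraries under a fixed low floor are drawn at that floor. Plac8 falls to its lowest group means at weeks 20 and 30, and S100a8 and S100a9 are high in 2 of 3 libraries at week 0 and in 1 of 2 at week 1.

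S100a8 and S100a9 varied by library. S100a8 had 12.7, 3.16 and 14.2 CPM at week 0, 14.9 and 2.57 at week 1, 0.744 and 1.42 at week 4, and 1.94 to 4.44 CPM in the libraries of weeks 10 to 30. S100a9 had 12.4, 3.28 and 14.6 CPM at week 0, 27.1 and 4.60 at week 1, 0.372 and 0.663 at week 4, and 2.68 to 5.67 CPM in later weeks. Retnlg, 1 of 13 neutrophil markers and picked after its values were seen, was highest in the same libraries, with 2.67, 0.351 and 2.14 CPM at week 0 and 4.48 and 0 CPM at week 1. Other neutrophil markers had other patterns: Mmp8 was highest at weeks 20 and 30, with 5.20 to 10.1 CPM, Lcn2 had its highest value, 65.1 CPM, in 1 library of week 4, and Ngp had 3.12 CPM in 1 library of week 0 and 3.01 CPM in 1 of week 30. Ly6g had at most 0.424 CPM in this set, and the sum of 13 neutrophil markers ranged from 142 to 204 CPM at week 30 and from 170 to 292 CPM at week 0. Much of that sum was Csf3r, with a mean of 143 CPM in this set.

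At week 30 S100a8 averaged 3.24 ± 0.84 CPM (n = 4), against 10.0 ± 5.99 CPM at week 0 (n = 3), a log2 change of -1.63 ± 0.50 (edgeR's quasi-likelihood test, adjusted p = 0.0207), and S100a9 changed by -1.28 (adjusted p = 0.066). Together with Plac8 this made 2 of the 8 called lower, beside 15.0% of all genes tested (30.5% were called in either direction). When the 4 libraries over 1 CPM of Retnlg were left out, an alternative chosen after seeing the data, the change of S100a8 was -0.16 and that of S100a9 was 0.24, with 1 library left at week 0. The libraries left out at week 0 were also those high in S100a8 and S100a9, so these values only restate which libraries carried the difference and are no test of neutrophils. The call of S100a8 was also lost without replicate 1 (adjusted p = 0.077) or replicate 3 of week 0 (adjusted p = 0.10), and without replicate 1 (0.0513) or replicate 3 (0.0579) of week 30.

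**Figure D4:**
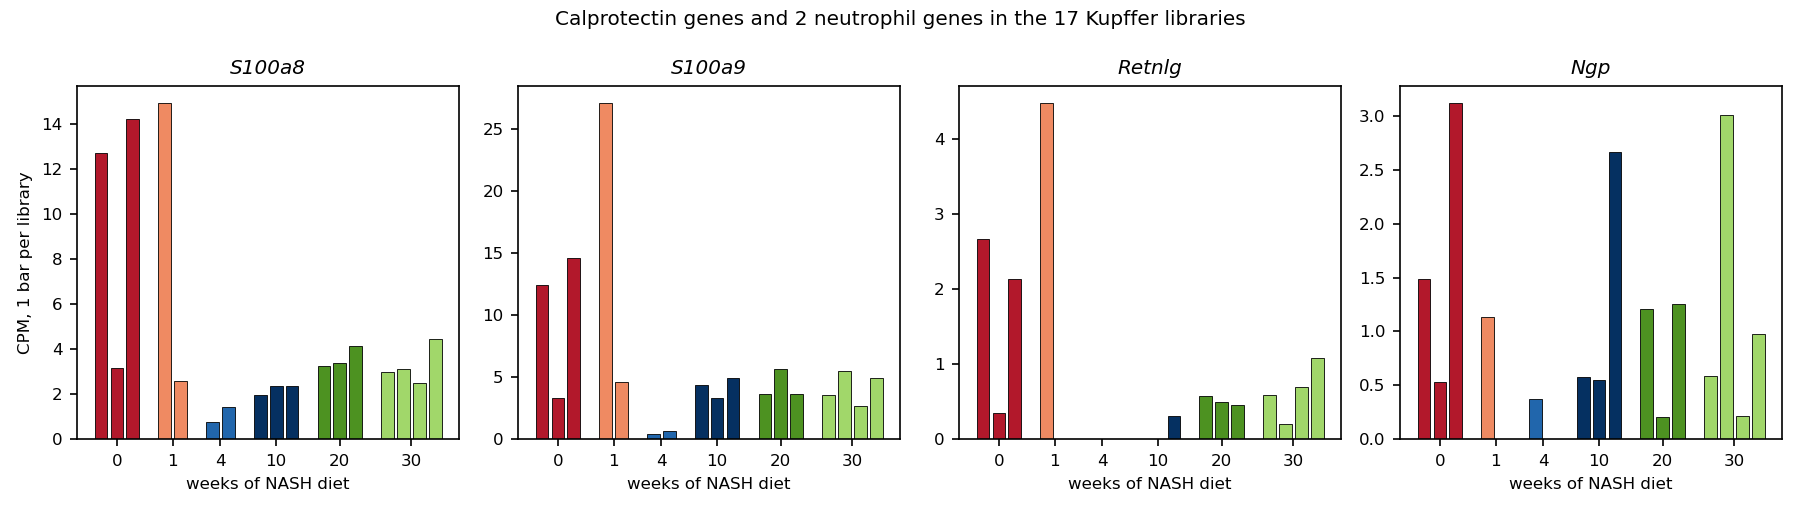
S100a8, S100a9, Retnlg and Ngp in CPM in the 17 Kupffer cell libraries, ordered by weeks of NASH diet, with a bar for each library. The libraries with the highest S100a9 have 2.14 to 4.48 CPM of Retnlg.

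Between weeks 30 and 0, 6 of the 14 other classical monocyte genes rose and 1 fell, with a median log2 change of 0.87, and 3 of 6 transcription factors rose and 1 fell, with a median of 0.25. All genes had a median of 0.00. Irf8 rose by 0.80, Cebpa by 0.59 and Spi1 by 0.43 on the log2 scale. Of the 7 paralogs tested, 2 rose and none fell, S100a4 by 1.34 and S100a6 by 1.17. Of the 14 partners and substrates 2 rose and 2 fell, and Tlr4, a receptor for calprotectin, fell by 1.02. The sum of Kupffer cell markers was 16223 to 22572 CPM at week 30, against 22955 to 30038 CPM at week 0. Hepatocyte markers rose in 6 of 8 (median 2.58; sum 221 to 815 CPM at week 30, against 37.3 to 123 CPM at week 0) and stellate cell markers in 7 of 9 (2.48; 117 to 341 CPM at week 30, against 32.3 to 62.3 CPM at week 0). Sinusoidal endothelial markers fell in 7 of 8 (-2.22; 590 to 873 CPM at week 30, against 1047 to 2197 CPM at week 0). The part of these cells in the changes was not tested.

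In KN-RM of the LXR set the 8 genes were near the limit of counting. Only Vcan and Plac8 had enough counts to be tested. Vcan had 4.10, 1.80 and 4.33 CPM in KN-RM labelled Cre-positive, against 15.9, 3.57 and 7.00 CPM in Cre-negative KN-RM, and the groups overlapped (log2 change -1.37 ± 0.63, adjusted p = 0.63). Plac8 had 16.0, 30.4 and 32.7 CPM in Cre-positive KN-RM, against 20.8, 41.9 and 39.3 CPM in Cre-negative KN-RM (-0.36 ± 0.34, adjusted p = 0.90). Neither was called by edgeR's quasi-likelihood test, nor was either past an unadjusted p of 0.05, beside 0.0348% of genes called lower.

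Of the genes not tested, Ly6c2 had 0, 1 and 10 reads in the 3 Cre-positive libraries, against 0 in each Cre-negative library, and Cd177 had 0, 3 and 8, against 0 in each Cre-negative library. S100a9 had 0, 1 and 8 reads and Chil3 0, 0 and 3 reads in Cre-positive libraries, against 0 in each Cre-negative library. F13a1 had 0, 2 and 6 reads in Cre-positive libraries, against 5, 0 and 0 in Cre-negative libraries, and S100a8 had 0, 0 and 2 reads, against 0, 1 and 6 in Cre-negative libraries. Of the Cre-positive libraries, replicate 3 held most of these reads. A count of 0 over the Cre-negative group allows up to 0.273 CPM (3 counts over the group, counting error only).

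The targeted genes were not lower in the libraries labelled Cre-positive. Nr1h3 (LXR alpha) had 187, 451 and 298 CPM in Cre-positive KN-RM, against 247, 282 and 307 CPM in Cre-negative KN-RM, and Nr1h2 (LXR beta) had 61.1, 82.5 and 64.5 CPM in Cre-positive KN-RM, against 51.1, 33.3 and 36.6 CPM in Cre-negative KN-RM, so that Nr1h3 overlapped between the groups and Nr1h2 was higher in each Cre-positive library. Counts over whole transcripts need not fall when some exons are removed, and which exons were floxed is not given in the sources used here. Ccr2 was called higher in Cre-positive KN-RM, with 238, 159 and 173 CPM, against 49.3, 24.5 and 44.9 CPM in Cre-negative KN-RM (log2 change 2.27), and it was the 1 called gene of the 14 other classical monocyte genes. Timd4 had 17.2, 304 and 94.3 CPM in Cre-positive KN-RM, against 3.52, 5.71 and 16.4 CPM in Cre-negative KN-RM.

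In whole liver none of the 7 genes tested differed between DTR-positive and DTR-negative livers, and edgeR called 0 of 12682 genes, 0% of those tested. At an unadjusted p under 0.05 there were 477 genes, and none of the 8. Plac8 ranged from 7.39 to 19.3 CPM with a median of 16.4 in 12 DTR-positive livers, and from 5.52 to 20.7 CPM with a median of 15.9 in 10 DTR-negative livers (log2 change 0.02 ± 0.17). S100a8 averaged 2.56 ± 1.15 CPM in DTR-positive livers and 1.90 ± 0.98 CPM in DTR-negative livers (0.45 ± 0.28), and S100a9 2.71 ± 1.47 CPM in DTR-positive livers and 3.50 ± 1.34 CPM in DTR-negative livers (-0.34 ± 0.27). The 95% interval of the log2 change ran from -0.31 to 0.35 for Plac8 and from -0.77 to 0.65 for Vcan, the widest of the 7. Cd177 had at most 4 reads in a liver and was not tested. Clec4f, whose promoter drives the Cre, overlapped between the groups, with 3.37 to 140 CPM in DTR-positive livers and 1.37 to 118 CPM in DTR-negative livers.

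Several of the genes were low in 4 livers, 3 DTR-positive and 1 DTR-negative, which stood apart in Col1a1, the gene of type I collagen. They had 46.6 to 65.4 CPM of it, against 155 to 351 CPM in the other 18. In these 4 livers Plac8 had 5.52 to 12.04 CPM, against 11.8 to 20.7 CPM in the other 18, Chil3 had 0.380 to 2.32, against 1.64 to 5.26 CPM, and Ly6c2 had 0 to 1.25, against 1.42 to 3.34 CPM. Alb, the gene of albumin, was 115220 to 138260 CPM in the 4 and 36218 to 83006 CPM in the other 18, and Ccr2 was 1.55 to 4.22 CPM in the 4 and 9.47 to 25.1 CPM in the other 18.

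Over all 22 livers, as planned, 22 of the 28 pairs of the 8 genes were called by Pearson's r and 11 by Spearman's rho, each with 100000 permutations. Because the livers formed 2 clusters, correlations were also taken within the 18 livers, an alternative chosen after seeing the data. The values that follow are of these 18. Pearson's r ran from -0.28 to 0.48 with a median of 0.13, and no pair was called after adjustment over the 28. Reads were few, with at most 33 for Vcan and 4 for Cd177 in any liver, so a low r cannot be told apart from counting error. The pair with the lowest unadjusted p was S100a8 and F13a1 (r = 0.48, permutation p = 0.044, adjusted 0.92; Spearman's rho 0.38, permutation p = 0.12), and r was 0.30 without the 2 livers farthest from the median of the first gene.

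**Figure D5:**
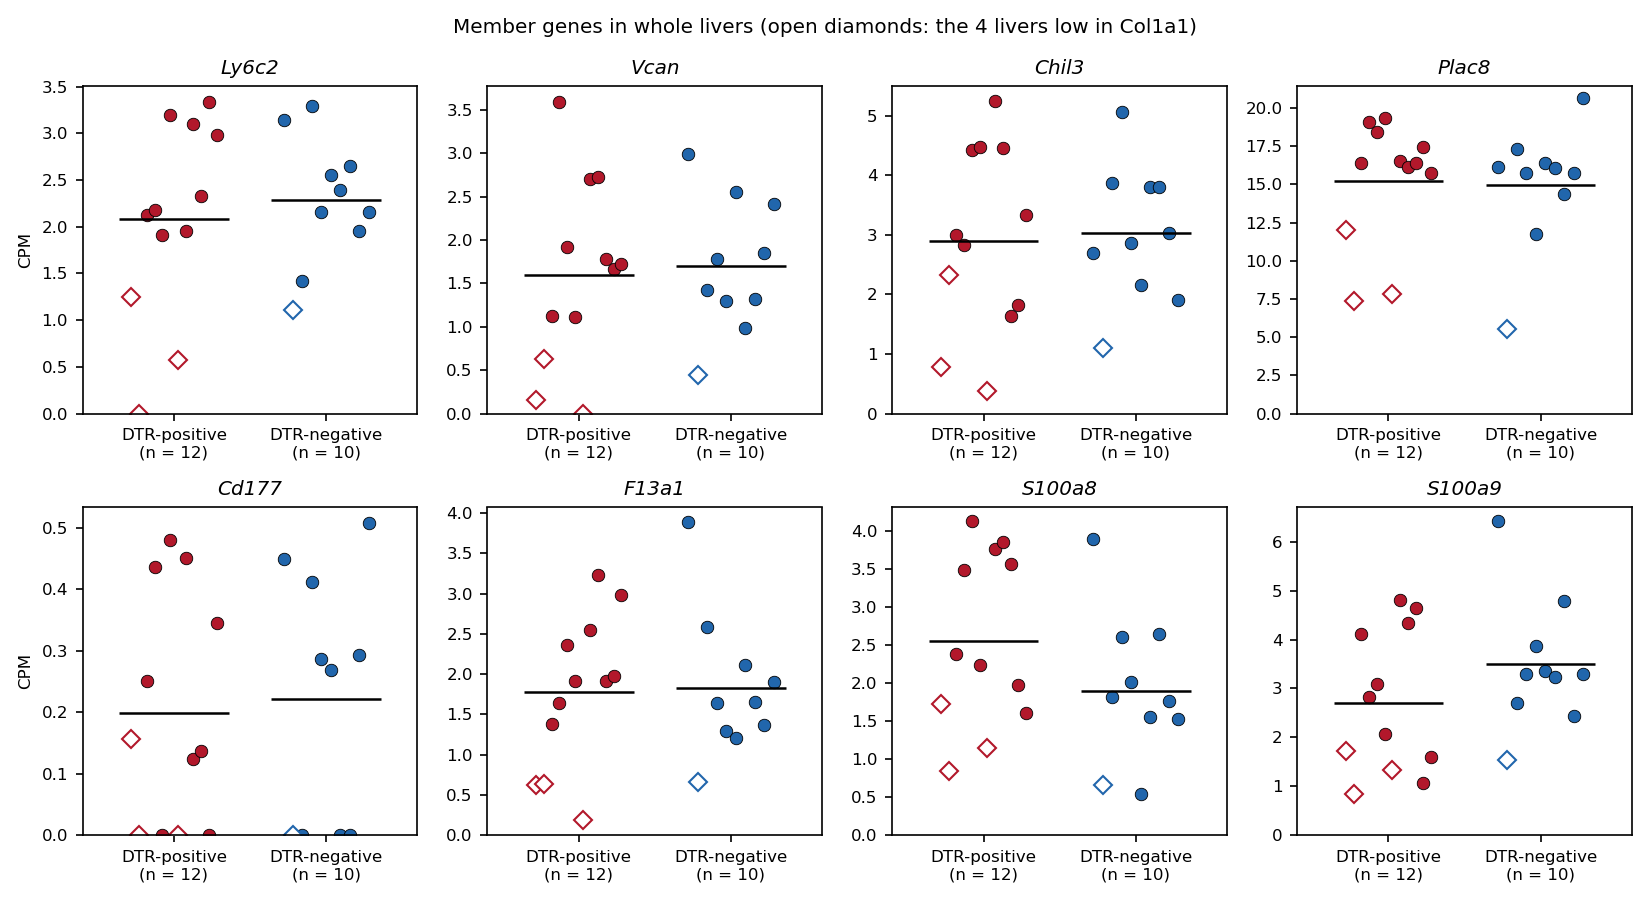
CPM of the 8 genes in the 22 whole livers, on a linear axis, with DTR-positive livers left of DTR-negative livers. A line marks each group mean, and open diamonds mark the 4 livers low in Col1a1. The groups overlap for every gene. The open diamonds lie toward the low end, below all other livers for Ly6c2, Vcan and F13a1 and overlapping with them for the rest.

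Across the 14 groups of sorted cells the genes most alike in level to each of the 8 were ranked, among 10723 genes. The ranking used Pearson's r of group mean log2 CPM and is a description. For this ranking alone the libraries of the 3 sets were scaled together, with differences between the sets left in. Ly6c2 was closest to Chil3 (r = 0.97), Hopx (0.95) and Slpi (0.94), and Chil3 to Ly6c2 (0.97), Cd177 (0.97) and Ndrg1 (0.96). Cd177 was closest to Chil3, Tppp3 and F13a1, each at 0.97, and F13a1 to S100a6 (0.97), Cd177 (0.97) and Gpr15 (0.96). Vcan was closest to Capn2 (0.96), Ctps2 (0.94) and Plcb1 (0.94). Plac8 had none of the other 7 among its closest genes, which were Glud1 (0.95), Arhgef37 (0.95) and Serp1 (0.94). S100a9 was closest to Srp19 (0.90), S100a8 (0.90) and Ralb (0.89), and S100a8 to Eif4e2 (0.94), Rpia (0.93) and Ube2l3 (0.93).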

How the data were processed

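Transcripts were measured by RNA sequencing of sorted cells and of whole liver. The authors deposited raw counts and TPM for 40458 RefSeq transcripts of mm10, made with HOMER from reads in exons, per the file headers. The submitters' processing notes name STAR, HOMER and DESeq2. Every column matched a library (0 left over). Per the labels' protocols, livers were digested with Liberase under flavopiridol, a block of transcription, before enrichment and sorting. Separate animals are not stated for replicates, so p-values cover only the spread between these samples, which may be technical. Replicates of a group were compared over 140 pairs (chi-square per degree of freedom 5.03 to 79.9), and none was a duplicate.

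One transcript was used for each symbol, the most counted (7630 of 24941 symbols had several), and a read in a shared exon counts for each isoform. The deposited counts were fitted with edgeR 4.0.16 (R 4.3.3) after filterByExpr (lowest count 10, lowest total 15) and TMM scaling, with the two-sided quasi-likelihood test and Benjamini-Hochberg adjustment over all genes. The population set gave 14407 genes and 6 residual degrees of freedom, the time course 14552 and 11, the slope 14086 and 12, the LXR set 11480 and 4, and whole liver 12682 and 20. SE is the log2 change over the root of F. Counts were also simulated with a fixed spread, and only genes with ample counts were changed. In these edgeR recovered 38 of 100 genes with a 2-fold change between Ly6CHi-RM and blood monocytes (13990 genes tested). It recovered 84 of 100 at week 30 (14055) and 13 of 100 in the LXR set (11611). These rates need not hold for genes with few counts or a wider spread. The deposited TPM served for levels between genes and for an alternative.

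The 8 genes and all lists were chosen with earlier results of these data known. Of each list the text mostly names at most the 3 genes with the highest mean CPM in that fit. Genes that share reads with the 8 and cell type markers are named besides. The rule was not kept for the paralogs in the time course, where S100a4 is named but ranked 4 by mean CPM. Ly6a and S100a10, with higher mean CPM, are not named there, so naming did not follow level alone. Genes compared for likeness needed 10 CPM in 1 group. Alternatives were DESeq2 1.42.0, RLE factors, no filter, a replicate block, limma 3.58.1 on log2(TPM + 1) and log2(TPM + 0.1), summed transcripts, each pair of groups alone and each library left out. Floors cover counting error only.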

Additional observations from a re-analysis of the deposited data

How the results depend on the processing

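All 8 genes were called lower in Ly6CLow-RM than in Ly6CHi-RM under each setting run, with 8 to 8 calls when each library was left out in turn. Leaving out a library gave 5 to 5 calls in Ly6CHi-RM against blood monocytes (6 called) and 7 to 7 in KN-RM against Ly6CHi-RM (8 called). For Ly6CLow-RM against KN-RM (5) both groups alone gave 2 and leaving out a library 2 to 5. For KN-RM against KC-N (1) DESeq2 and no filter gave 3, the replicate block 2, and RLE factors, limma on log2(TPM + 1) with and without a filter, summed transcripts, both groups alone and each library left out gave 0. For KC-N against KC-H (2) DESeq2, no filter and limma on log2(TPM + 0.1) gave 4, both groups alone 1 and leaving out a library 0 to 2. Leaving out a library gave 1 to 3 at week 30 (2) and 3 to 5 over any week (4), and leaving out libraries over 1 CPM of Retnlg gave 1 and 2. For the slope (1) DESeq2 and limma on log2(TPM + 1) gave 2, no week 1 gave 3, no week 4 gave 2, no week 10 gave 4 and leaving out a library 1 to 2. In the LXR set each setting gave 0. Of 28 pairs of genes, 22 were called over 22 livers, 11 within DTR-positive, 0 within DTR-negative and 0 without the 4 livers low in Col1a1.

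Some log2 changes turned sign. For Ly6CLow-RM against KN-RM, Vcan was 0.0322 with limma on log2(TPM + 1), with and without a filter, and 0.0913 with log2(TPM + 0.1). Plac8 was 0.0539 and 0.0544 there, and -0.57 to 0.0286 with a library left out. For KN-RM against KC-N, S100a8 was -0.00818 with DESeq2, -0.00750 with RLE factors, -0.000495 with the replicate block and at its lowest -0.18 with a library left out. Chil3 in KC-N against KC-H ran from -0.73 to 0.82 and Ly6c2 at week 30 from -0.0720 with a library left out. S100a9 was 0.24 at week 30 without libraries over 1 CPM of Retnlg. With a library left out the slope of S100a8 ran from -0.28 to 0.20 and that of S100a9 from -0.38 to 0.13. They were 0.54 and 0.67 without week 1, and 0.18 and 0.12 without libraries over 1 CPM of Retnlg. In whole liver Plac8 was -0.00816 with the replicate block and F13a1 0.00434 with limma on log2(TPM + 1). Without the 4 livers low in Col1a1 Ly6c2 was 0.10, Vcan 0.16, Chil3 0.0975 and F13a1 0.19. The cause was not tested.

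Total calls also moved. For KN-RM against KC-N (77) DESeq2 gave 269, no filter 257, limma 36 and 38, both groups alone 48 and leaving out a library 10 to 33. For the LXR set (24) DESeq2 gave 232, no filter 273, limma 2, 0 and 1, summed transcripts 12 and leaving out a library 0 to 81. Leaving out a library gave 1619 to 3051 for Ly6CLow-RM against Ly6CHi-RM (3702), 3417 to 4236 for KN-RM against Ly6CHi-RM (5613), 2851 to 3607 for Ly6CLow-RM against KN-RM (4804), 846 to 2031 for KC-N against KC-H (2988) and 1973 to 3660 for the slope (3217). Without libraries over 1 CPM of Retnlg there were 1353 at week 30, 5420 over any week and 1323 for the slope, and leaving out weeks 1, 10, 20 and 30 gave 1560, 5156, 2067 and 964 for the slope. Whether replicate numbers pair some of the samples was not settled. The median correlation of same-numbered deviations was 0.06, 0.01, 0.05 and 0.11 in the population, time, LXR and liver sets. Single same-numbered pairs of the population set reached 0.57, so a median near 0 does not exclude pairing of some populations. The replicate block gave 152 total calls for KN-RM against KC-N, 1742 for the slope and 115 in the LXR set. The settings on Retnlg, Col1a1 and single weeks were chosen after seeing the data. The LXR set had the fewest counts, and 6 of the 8 genes had too few to be tested there. Where 1 library of a group was left, its spread was taken from the other groups of the fit.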
